A study of Mus musculus with 17 samples.

Results

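Tissue grown from wildtype (WT) mouse embryonic fibroblasts in host mice was compared with endogenous subcutaneous fat of the same series. The comparison used 6 of the 16 libraries of the deposited table, taken by their labels: the 4 WT implants MWM1, MWM2, MWF1 and MWF2, and the 2 subcutaneous fat libraries ESM1 and ESM2. Earlier results of these data were known when the comparison was chosen. A further sample of subcutaneous fat, with the code ESF, is one of 17 labelled samples and is not analysed here. Every gene of the table was considered, and 17723 of 54658 passed the filter on low values.

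Mouse embryonic fibroblasts are connective tissue cells cultured from embryos, which can form fat when injected under the skin. In this series, cells from WT pups were injected over the sternum of mice of a type named LD, which the labels do not spell out, at 3 to 5 weeks of age, and grew into tissue like fat. At 16 weeks the medial meniscus of the left knee was destabilized, an operation that leads to osteoarthritis, and the mice were killed at 28 weeks. MWM is the WT implant group described as male with surgery, and MWF the WT implant group described as female with surgery. ESM is endogenous subcutaneous fat, described as male with surgery. All 3 groups therefore share the operation. The design text elsewhere calls the hosts male, and it does not say which implant, if any, the animals behind ESM carried, from which site that fat was taken, or how many embryos or animals stood behind a library. The series title names leptin, complement factor D, osteoarthritis and pain, and the endogenous depots serve here as the reference for what the implants expressed.

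White adipocytes store triglyceride in a single lipid droplet, coated by perilipin, and release it as fatty acids when adrenergic signals activate lipases. They are also secretory cells: leptin reports the size of the store to the brain, and factor D (adipsin), the serine protease that starts the alternative complement pathway, is made mainly by adipocytes. Adipose tissue further holds blood and lymph vessels, nerve endings with their Schwann cells, fibroblastic progenitors, resident macrophages and, in places, lymphoid aggregates, and each of these can be read from its marker transcripts. A depot also carries a positional record in its Hox genes, whose paralog groups are set up along the body axis in the embryo.

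Values are CPM, the reads of a gene scaled so that each library sums to 1000000. Library values are given in a fixed order: MWM1, MWM2, MWF1 and MWF2 for the implants, and ESM1 then ESM2 for the fat. Fold changes are of the equally weighted mean of MWM and MWF over ESM on the scale of log2(CPM + 0.5), which understates the change of low genes. A gene is said to rise or fall where the adjusted p of limma, a linear model with pooled spread, was under 0.05 (Benjamini-Hochberg over all tested genes). Where both fat libraries had 0 reads, the fold is a lower bound from 3 reads summed over them. Separate animals are not stated for the libraries of a group, and the p-values therefore reflect the spread among libraries alone, which may be technical. In tissue RNA, fewer cells of a type and less RNA per cell cannot be told apart.

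The 6 libraries held 16444965 to 21283251 reads, so 1 read was worth 0.047 to 0.061 CPM. The labels name the tissue as ganglia and the cell type as sensory ganglion. All 27 genes of a white adipocyte list had reads in all 6 libraries, and their sum was 47380, 57170, 26920 and 39460 CPM in the implants against 76710 and 60140 CPM in the fat. A list of 23 sensory and sympathetic neuron genes summed to 331 to 461 CPM in the implants and to 541 and 560.1 CPM in the fat. The chi-square statistic of the read counts within a group was 22.3 per degree of freedom in MWM, 103 in MWF and 101 in ESM, so no pair agreed within sampling noise. Across genes, the closest library to ESM1 was EVFN2, labelled visceral fat (r = 0.97), and not ESM2. The libraries labelled EVFN1 and MKM1 went against their labels across genes (r = 0.905 with EVFN2 and 0.89 with MKM2, against 0.984 with MKF1 and 0.989 with EVFY1), and their groups were kept out of the fit. Sex chromosome genes were read as a check of the labels. Xist (chromosome X, 103460366 to 103483254, minus strand, mm10), the RNA that coats an inactive X chromosome, was at 494, 466, 491 and 766 CPM in the implants and at 0.454 and 0.057 CPM in the fat. Ddx3y (chromosome Y, 1260771 to 1286629, minus strand), a helicase gene of the Y chromosome, was at 13.1, 17.3, 0.266 and 0.182 CPM against 89.7 and 73.5 CPM. The 2 MWM libraries thus held both transcripts, the 2 MWF libraries Xist with Ddx3y near 0, and the fat the reverse. The fat went with its description as male, while MWM, also described as male, held Xist. MWF, described as female, had Ddx3y near 0, although the design text elsewhere calls the hosts male. Xist was called higher and Ddx3y, Eif2s3y, Kdm5d and Uty lower in the implants, and a difference in sex between the tissues compared and a difference in tissue cannot be told apart.

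In the whole comparison 1852 of 17723 genes (10.4%) changed, 1524 (8.6%) higher and 328 (1.85%) lower in the implants. Rises were often large: 346 exceeded a log2 fold change of 3, against 7 falls beyond -3. The genes with the largest rises were, besides Xist, liver genes, and those with the largest falls were, besides 4 Y chromosome genes, C7, Fcna, Mrgprg, Wnt10b, Prtn3, Pcdh20, Rasd1 and Cfd. Of the genes that rose, 224 had 0 reads in both fat libraries. All 4 implants lay above both fat libraries in 3383 genes (19.1%) and below both in 1417 (8.0%). The median of all genes was 0.14, and TMM scaling, which centres the bulk of genes, moved it by -0.12 to 0.02 and gave 1385 rises (7.81%) and 604 falls (3.41%).

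Against ESM, the MWM implants differed in 663 genes (3.74%; 535 or 3.02% higher and 128 or 0.722% lower) and the MWF implants in 3357 (18.9%; 2869 or 16.2% higher and 488 or 2.75% lower). These 2 counts share the same fat libraries. The direct comparison of MWM with MWF gave 2457 genes (13.9%), 260 (1.47%) higher and 2197 (12.4%) lower in MWM. With TMM scaling this became 983 (5.55%) higher and 1217 (6.87%) lower, and the median of all genes went from -0.18 to 0.07. For MWF against ESM TMM scaling gave 1986 (11.2%) higher and 1395 (7.87%) lower genes, and for MWM against ESM 672 (3.79%) and 158 (0.891%).

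These counts depended on single libraries and on which groups shared the estimate of spread. The fit with all 8 groups takes the gap within EVFN and within MKM as spread. Cfd was at 81.8 CPM in EVFN1 and 12310 in EVFN2, and at 14070 in MKM1 and 102 in MKM2. That gap lies along fat against implant, the difference compared here. Genes of this difference therefore lose support in that fit, and a miss there is no measure of their stability. For the 4 implants against the 2 fat libraries, the count was 290 without ESM1, 829 without MWM1, 969 without ESM2, 1142 without MWF2, 1207 without MWM2 and 444 when all 8 groups entered the fit. For MWM against ESM it was 16 without MWM1, 95 without ESM1, 248 without ESM2, 343 without MWM2 and 15 with all 8 groups. For MWF against ESM it was 1443 without MWF2, 1770 without ESM1, 1921 without MWF1 and 1799 with all 8 groups, and for MWM against MWF 525 without MWM2, 718 without MWM1, 999 without MWF2 and 1030 without MWF1. Of 128 named genes past the threshold, 22 stayed past it in every setting in which they were tested: C7, Cd22, Cd4, Chga, Cxcr4, Dbh, Foxp3, Gfap, Igfbp2, Krtdap, Mbp, Nefh, Nefl, Ngp, Pth, Scn10a, Sftpa1, Sftpb, Sftpc, Sftpd, Trac and Xist. Of these, Krtdap could be tested in 16 of the 19 alternatives and Dbh, Nefl, Ngp and Scn10a in 18. None of the 128 turned its direction in a setting in which it was tested.

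**Figure D1:**
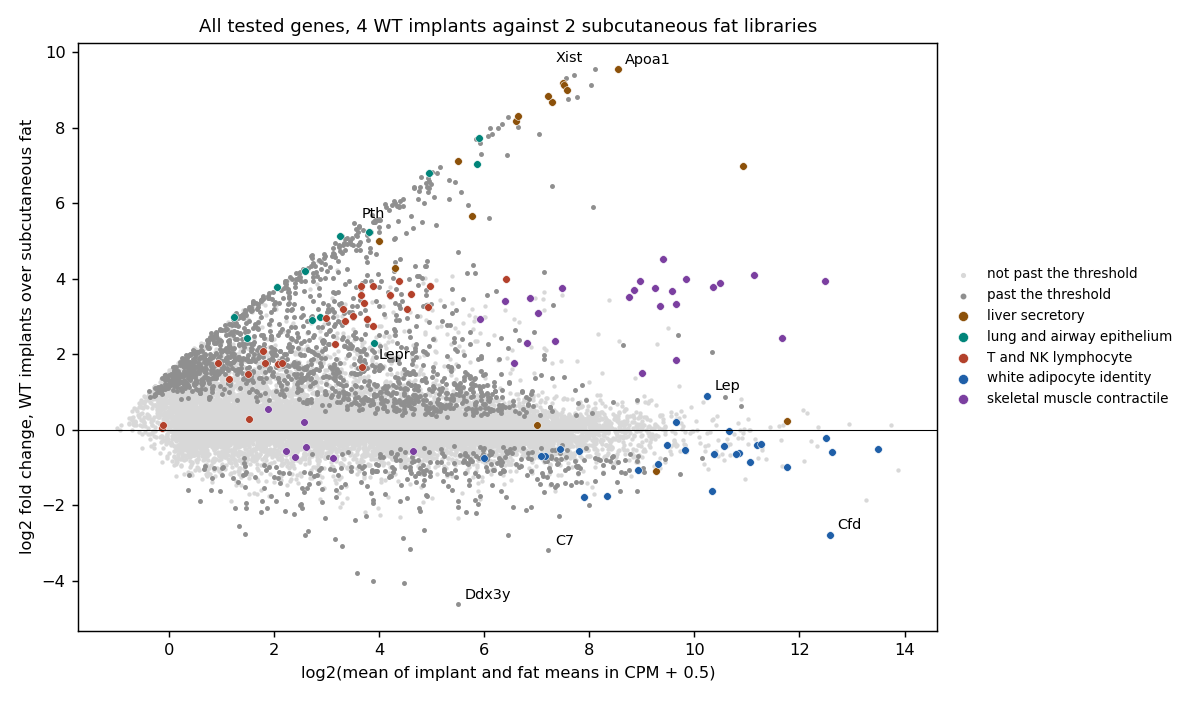
Log2 fold change of the 4 WT implants over the 2 subcutaneous fat libraries (vertical axis) against the log2 mean level in CPM + 0.5 (horizontal axis), 1 point per tested gene; darker grey points passed the threshold and colours mark 5 gene lists. Most liver, lung and lymphocyte genes lie far above 0, Cfd and C7 below it, and most skeletal muscle genes lie high without passing the threshold.

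Adipocyte genes were abundant in the implants, and a few of them were lower than in the fat. Adipoq, encoding adiponectin, was at 1636, 2175, 876 and 1304 CPM in the implants and 2418 and 1981 CPM in the fat, and Plin1, the lipid droplet coat protein perilipin, at 1584, 1805, 853 and 1410 CPM against 2474 and 1811 CPM. Fabp4, the fatty acid carrier of adipocytes, was at 6242, 6285, 3200 and 4454 CPM against 9546 and 5639 CPM. The tissues overlap in Adipoq through MWM2 and in Fabp4 through MWM1 and MWM2, and all 3 genes were lowest in MWF1. Adipoq had a fold change of -0.62 (SE 0.25, adjusted p = 0.156) and Plin1 of -0.64 (SE 0.25, adjusted p = 0.154), and neither passed. These 3 genes were chosen after their values were seen, as the defining markers of the tissue. Of 27 white adipocyte genes 0 rose and 4 fell (Cfd, Nnat, Retn and Pnpla2), with a list median of -0.62 beside 0.14 for all genes. That is 4 of 27 against 1.85% of all tested genes (6 with TMM scaling, 2 without any 1 of MWM1, MWM2 and MWF1, and 1 without ESM1). The implants were all below the fat in 9 of the 27 and all above it in 0, against 8.0% and 19.1% of all tested genes. Taken apart, 2 fell and 1 rose over the fat in MWM (median -0.31), beside 0.722% and 3.02% of all tested genes. In MWF 9 fell and 0 rose (median -0.95), beside 2.75% and 16.2%.

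Leptin (Lep, chromosome 6, 29060220 to 29073877, plus strand), the hormone absent from the knockout donors of the series, was at 1888, 2675, 806 and 1019 CPM in the implants and at 1137 and 516 CPM in the fat. Both MWM libraries lay above both fat libraries, while MWF1 and MWF2 lay between them. The fold change of 0.90 (SE 0.30, adjusted p = 0.1) did not pass. It rested on which fat library was kept: 1.47 without ESM1 (adjusted p = 0.0429) and 0.33 without ESM2 (adjusted p = 0.456), where the other alternatives gave adjusted p from 0.0798 to 0.224. Its receptor gene Lepr (chromosome 4, 101717404 to 101815352, plus strand), a cytokine receptor that signals through JAK2 and STAT3, was at 18.6, 14.3, 22.5 and 32.4 CPM against 5.73 and 6.32 CPM. All 4 implants exceeded both fat libraries, and Lepr rose by 1.72 (SE 0.34, adjusted p = 0.0157). It missed the threshold without ESM1, ESM2 or MWM1 (adjusted p = 0.111, 0.0651 and 0.056; 0.00674 to 0.0457 in the other alternatives). Of 14 genes of leptin receptor and JAK-STAT signalling, Lepr and the tyrosine phosphatase gene Ptpn1, a brake on leptin and insulin signalling, rose and 0 fell, beside 8.6% and 1.85% of all tested genes. Ptpn1 passed in 8 of 19 alternatives and missed with TMM scaling, with edgeR and without either fat library. The list had 1 rise with TMM scaling, with edgeR, with all 8 groups or without any 1 implant library, and 0 without ESM1 or ESM2, where 1 gene fell without ESM2.

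Factor D (Cfd, chromosome 10, 79890853 to 79892655, plus strand) fell furthest among the adipokine genes. It was at 1391, 2210, 1223 and 1416 CPM in the implants and at 8046 and 13270 CPM in the fat, so every implant lay far below both fat libraries. The mean was 1560 ± 442 CPM (SD, n = 4) against 10700 ± 3690 (SD, n = 2), a fold change of -2.77 (SE 0.35, adjusted p = 0.00313). It missed the threshold in 1 alternative, the fit with all 8 groups (adjusted p = 0.469), and adjusted p was 0.0026 to 0.0329 in the other alternatives. Retn, encoding the adipocyte hormone resistin, was at 119.9, 152, 98.4 and 236 CPM against 385 and 598 CPM and fell by 1.74 (SE 0.45, adjusted p = 0.0444). Retn missed the threshold with edgeR, with array quality weights, without the filter and with all 8 groups. Serpina12, encoding the serine protease inhibitor vaspin, moved the other way, from 0.0567 and 0.399 CPM in the fat to 19.2, 11.1, 1.54 and 3.1 CPM in the implants (3.18, SE 0.50, adjusted p = 0.00621). Nnat, an imprinted gene of a small membrane protein that is high in fat tissue, was at 765, 725, 433 and 678 CPM against 2161 and 1736 CPM, with no overlap, and fell by 1.61 (SE 0.24, adjusted p = 0.00537). Of 17 tested adipokine genes of 18 listed, 1 rose and 2 fell, against 8.6% and 1.85% of all tested genes.

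Lipolysis genes were lower where they passed. Pnpla2, the first lipase of triglyceride breakdown, was at 1621, 2095, 1145 and 1311 CPM against 3021 and 2416 CPM, and Pde3b, the phosphodiesterase through which insulin restrains lipolysis, at 235, 302, 184 and 222 CPM against 502 and 424 CPM. Neither overlapped between the tissues. Pde3b fell by 0.99 (SE 0.20, adjusted p = 0.0186) and Pnpla2 by 0.85 (SE 0.22, adjusted p = 0.0471). Gnai1, an inhibitory G protein subunit, also fell. Thus 3 of 16 tested genes of adrenergic receptors and lipolysis fell and 0 rose, against 1.85% and 8.6% of all tested genes. Adrb3, the adipocyte adrenergic receptor, was at 94.2, 87.5, 93.2 and 171 CPM against 339.7 and 396 CPM, with no overlap, and did not pass (adjusted p = 0.0887; chosen after its values were seen). Without ESM1 or MWM1 0 of the 16 fell, without MWM2, MWF1 or MWF2 1 did, and without ESM2 2. With all 8 groups in the fit, the adipocyte list kept 1 fall and the lipolysis list 0.

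Fatty acid synthesis gave 0 calls among 19 genes by limma and by edgeR, with 5 at an unadjusted p under 0.05 by either tool. Fasn, the fatty acid synthase, was at 2265, 2239, 743 and 3030 CPM in the implants and 1778 and 7065 CPM in the fat, and Scd1, the desaturase that makes monounsaturated fatty acids, at 6350, 3916, 2418 and 5210 CPM against 15320 and 15130 CPM (both chosen after their values were seen). Fasn overlapped and Scd1 was lower in all implants. Elovl5, of the same list, was at 258, 143, 101 and 147 CPM against 76.8 and 83.3 CPM. Fads2 was at 149, 66.1, 29.5 and 63.6 CPM against 14.9 and 12.6 CPM. Both lay above the fat in all implants and did not pass (adjusted p = 0.0534 and 0.0589). In 3 of the 19 genes all 4 implants lay above both fat libraries and in 3 below both, against 19.1% and 8.0% of all tested genes. Of 20 genes of cholesterol synthesis and uptake 5 rose and 0 fell, against 8.6% and 1.85% of all tested genes. Dhcr7, a reductase late in the pathway, was at 45.7, 37.2, 23.8 and 42.3 CPM against 8.34 and 18.7 CPM, and Fdps, which makes farnesyl diphosphate, at 4.23, 2.31, 1.75 and 2.25 CPM against 0.681 and 0.968 CPM. Dhcr7 rose by 1.49 (SE 0.32, adjusted p = 0.022) and Fdps by 1.19 (SE 0.27, adjusted p = 0.0254). The count of rises was 1 without ESM1, 3 without MWM1 or MWF2 and 8 without MWF1, and 0 with all 8 groups. The summed liver list, described below, was also higher in MWM1, MWM2 and MWF2 than in either fat library, and the part of liver transcripts in the cholesterol result was not tested.

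Among 15 tested genes of brown and beige thermogenesis of 16 listed, 5 rose and 2 fell, against 8.6% and 1.85% of all tested genes. The rises included Otop1 and Pank1, which are not described further. Dio2, which activates thyroid hormone inside the cell, was at 6.95, 3.56, 4.04 and 19.7 CPM against 0 and 0.513 CPM (3.35, SE 0.62, adjusted p = 0.0127). Elovl3, a fatty acid elongase of brown fat and sebaceous gland, was at 3.57, 4.07, 0.425 and 1.34 CPM against 0 and 0.057 CPM, 84.3 times the fat (exact 95% interval of the counts 14.9 to 3350), with adjusted p = 0.0116. Slc27a2, a fatty acid transporter of liver and kidney, rose by 6.30 (SE 1.37, adjusted p = 0.0229). Ebf2, a transcription factor that commits precursors to brown and beige fat, was at 17.5, 16.3, 15.2 and 21 CPM against 45.1 and 31.6 CPM and fell by 1.10 (SE 0.24, adjusted p = 0.0234), as did Prdm16, its partner in that programme. Ucp1, the uncoupling protein that defines heat production, was at 1.93, 0.226, 0.903 and 2.74 CPM against 0.284 and 0 CPM and did not pass (adjusted p = 0.145; Prdm16 and Ucp1 were chosen after their values were seen). The members that moved thus do not share a direction. Without ESM1 or with all 8 groups 0 of the 15 passed, without MWM1, MWF2 or ESM2 2 rose, and with edgeR 1.

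Complement genes moved in both directions. Of 33 genes 9 rose and 4 fell, against 8.6% and 1.85% of all tested genes (3 and 2 without ESM1, 6 and 2 without ESM2, 6 and 2 without MWM1, 3 and 1 with all 8 groups, 4 and 4 with edgeR). Hc, encoding complement C5, was at 119, 56, 28.8 and 59.7 CPM in the implants against 0.908 and 0.854 CPM in the fat and rose by 5.41 (SE 0.47, adjusted p = 0.00106). C8a, a subunit of the membrane attack complex, was at 67.8, 45.7, 10.6 and 17.4 CPM in the implants with 0 reads in the fat, at least 432-fold higher (adjusted p = 0.00309). The others that rose were C9, Cfi, Masp1, Masp2 and Mbl2, typical of liver, Itgax, a leukocyte integrin, and Cr2, a receptor of B cells. In these genes all 4 implants lay above both fat libraries.

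C7 (chromosome 15, 4988762 to 5063740, minus strand), the component that anchors the attack complex in the membrane, was lower in the implants and differed between MWM and MWF. It was at 80.7, 161, 6.32 and 3.71 CPM against 172 and 292 CPM, so the MWM libraries were nearer to the fat and the MWF libraries almost without it. The fall was 3.18 (SE 0.38, adjusted p = 0.00309), and MWM exceeded MWF by 4.42 (SE 0.44, adjusted p = 0.00136). Fcna, a ficolin that starts the lectin pathway, was at 2.25, 4.91, 14 and 1.7 CPM against 37.9 and 44.7 CPM and fell by 3.16 (SE 0.69, adjusted p = 0.023). Besides Cfd, C2, a protease of the classical pathway, completed the falls. C3, the central component, was at 3010, 2569, 2683 and 3133 CPM against 2285 and 3167 CPM and overlapped (adjusted p = 0.853), as did C1qa, a chain of C1q, at 185, 157, 214 and 224 CPM against 166 and 282 CPM (adjusted p = 0.733; C2, C3 and C1qa were chosen after their values were seen).

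Transcripts typical of other organs were among the largest rises. Of 16 liver secretory genes 13 rose and 0 fell, against 8.6% and 1.85% of all tested genes, with a median of 7.64, or 7.90 with genes at 0 in the fat set at their bounds. Apoa1 (chromosome 9, 46228580 to 46230466, plus strand), the main protein of HDL, was at 1389, 702, 272 and 606 CPM in the implants and 0.113 and 0.683 CPM in the fat, and rose by 9.54 (SE 1.09, adjusted p = 0.00275). Alb (chromosome 5, 90460897 to 90476602, plus strand), serum albumin, was at 6958, 3481, 1614 and 3386 CPM against 27.2 and 25.1 CPM (6.99, SE 1.08, adjusted p = 0.00609; chosen after its values were seen, as the most abundant secreted protein of liver). MWM1 held the highest level of both and MWF1 the lowest of the implants, and every implant exceeded the fat. Of 12 lung and airway epithelium genes 10 rose and 0 fell, with a median of 3.99, or 5.33 at bounds. Sftpc (chromosome 14, 70520949 to 70524081, minus strand), the surfactant protein of alveolar type II cells, was at 118, 41, 153 and 164 CPM in the implants and had 0 reads in the fat, at least 1390-fold higher (adjusted p = 2.09e-05).

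The sequences before 3 of these genes are shown because liver and lung each have a well-known tissue factor, HNF1 and NKX2-1, whose core letters can be searched. Each is the 250 bases before the RefSeq start of the gene (GRCm38.p6, the mm10 build), 5′ to 3′ on the strand of the gene. Capitals mark matches to GTTAAT, a half-site of HNF1, in Alb (chr5:90460620-90460869, plus strand) and Fgb (chr3:83049864-83050113, minus strand), and to CTCAAG, a core bound by NKX2-1, in Sftpb (chr6:72304360-72304609, plus strand), on either strand.
Alb: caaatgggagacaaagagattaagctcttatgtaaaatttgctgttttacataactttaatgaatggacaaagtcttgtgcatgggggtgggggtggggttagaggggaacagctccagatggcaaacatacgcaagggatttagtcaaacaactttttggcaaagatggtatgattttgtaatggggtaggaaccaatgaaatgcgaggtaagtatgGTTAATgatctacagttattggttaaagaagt
Fgb: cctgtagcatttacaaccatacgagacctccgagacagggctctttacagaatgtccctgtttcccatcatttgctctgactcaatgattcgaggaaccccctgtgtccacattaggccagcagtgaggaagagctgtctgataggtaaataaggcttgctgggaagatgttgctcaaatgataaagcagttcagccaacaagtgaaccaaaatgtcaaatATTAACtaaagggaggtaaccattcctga
Sftpb: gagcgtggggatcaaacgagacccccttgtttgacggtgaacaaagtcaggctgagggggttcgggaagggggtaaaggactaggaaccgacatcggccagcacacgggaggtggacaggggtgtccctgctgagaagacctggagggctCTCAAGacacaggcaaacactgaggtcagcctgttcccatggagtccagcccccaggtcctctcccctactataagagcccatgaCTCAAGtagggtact

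The motifs were searched on both strands, each counted apart whether or not it overlapped another, beside TATAAA, a core promoter element, and AGGTCA, a half-site of nuclear receptors. The HNF1 letters GTTAAT occurred in 6.43% of 32851 promoters of this length and in 5 of 14 liver promoters (13 of 16 genes matched), in 0 of 6 lung promoters (6 of 12 genes) and in 1 of 25 white adipocyte promoters (19 of 27 genes). CTCAAG occurred in 13.3% of all promoters, in 3 of 6 of the lung list, 1 of 14 of the liver list and 4 of 25 of the adipocyte list. TATAAA was present in 12.4% of all promoters and in 2 of 14, 1 of 6 and 2 of 25 of the liver, lung and adipocyte lists. AGGTCA was present in 14% of all promoters and in 4 of 14, 2 of 6 and 6 of 25. A match is a description of letters and not of binding.

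The liver genes named by size were spread over many kinds of plasma protein. Fgb, the beta chain of fibrinogen, was at 581, 361, 74 and 175 CPM with 0 reads in the fat, at least 3640-fold higher (adjusted p = 0.00313), and Fga, the alpha chain, was at least 4500-fold higher (adjusted p = 0.00313). Gc, the vitamin D binding protein, was at 716, 347, 127 and 319 CPM with 0 reads in the fat, at least 4580-fold higher (adjusted p = 0.00313). Apob, the scaffold of LDL, had 1 read in the fat and a ratio of 15400 (95% counting interval 2760 to 607000), and Ttr, transthyretin, one of 13100 (2360 to 519000). MWM1 was the highest and MWF1 the lowest implant in each of these genes. Apoa2, a further HDL protein, rose by 8.69 (SE 1.10), Hpx, the heme carrier hemopexin, by 8.81 (SE 0.95) and Pzp, a plasma protease inhibitor, by 8.76 (SE 1.14), with adjusted p from 0.00252 to 0.00366. Serpina1a and Serpina1e also rose, but belong to a family of near-identical copies and may share reads.

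The count of liver genes depended on which groups shared the spread, and the fit with all 8 groups takes the fat-to-implant gap within EVFN and MKM as spread. Leaving out each of the 6 libraries gave 10 to 13 rises of 16, edgeR on the recovered reads gave 10, and the fit with all 8 groups gave 1. Between MWM and MWF the list median was 1.36 in favour of MWM. Of the 16 genes 1 passed, Hp, encoding haptoglobin, higher in MWM, as 1.47% of all tested genes were. Igfbp1, an IGF binding protein typical of liver, was at 114, 74.5, 19.8 and 25.8 CPM with 0 reads in the fat (at least 716-fold higher, adjusted p = 0.0046). Of 13 genes of IGF1 and its binding proteins 3 rose and 0 fell, against 8.6% and 1.85% of all tested genes. The rises besides Igfbp1 were Igfbp2 at 12.2, 6.49, 8.98 and 21.1 CPM against 0 and 0.342 CPM and Igfals, which overlapped. Without ESM1, with all 8 groups or with edgeR 1 of the 13 rose.

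The lung genes passed in most settings. Leaving out each library gave 7 to 10 rises of 12, and all 8 groups gave 10. Sftpb (chromosome 6, 72304610 to 72314371, plus strand), the surfactant protein that breathing cannot do without, was at 52.1, 25.7, 85.2 and 79.1 CPM with 0 reads in the fat, at least 706-fold higher (adjusted p = 2.53e-05). Sftpd, a collectin of the airway lining, was at least 85.1-fold higher (adjusted p = 0.000989). Sftpa1, a related collectin, had 3 reads in the fat and a ratio of 311 (95% counting interval 106 to 1510). Scgb1a1, secreted by club cells of the airway, was at 65.2, 42.6, 137 and 217 CPM against 0.227 and 0.228 CPM, and Nkx2-1, the transcription factor of lung and thyroid, at 2.68, 1.98, 5.31 and 5.05 CPM with 0 reads in the fat (both chosen after their values were seen). In contrast to liver genes, the surfactant genes were lowest in MWM2 and higher in MWF1 and MWF2 than in either MWM library. The test of MWM against MWF passed for 4 of the 12 genes, all lower in MWM, against 12.4% of all tested genes, with log2 differences of -1.86 for Sftpa1 and -1.35 for Sftpd. This count was 2 without MWM1 or with TMM scaling, and 0 without MWM2, MWF1 or MWF2.

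Endocrine and epithelial transcripts followed. Pth (chromosome 7, 113385580 to 113388570, minus strand), parathyroid hormone, was at 19.8, 17.7, 20.6 and 30.1 CPM and had 0 reads in the fat, at least 255-fold higher (adjusted p = 1.31e-05), with all 4 implants within a narrow range. Chga, a protein of neuroendocrine granules, was at 55.6, 41.4, 88 and 73.8 CPM against 0.0567 and 0.854 CPM (6.17, SE 0.54, adjusted p = 0.00106). Gcm2, the transcription factor of the parathyroid gland, was too low to test and had reads in the 4 implants alone (0.564, 0.508, 0.85 and 1.03 CPM). Tg, the precursor of thyroid hormone, was at 26.3, 0.452, 1.43 and 207 CPM against 0.681 and 0.342 CPM: MWF2 and MWM1 were high and the other libraries near the fat, and it did not pass (adjusted p = 0.264; Gcm2 and Tg were chosen after their values were seen). Of 7 tested genes of parathyroid and thyroid 4 rose and 0 fell, against 8.6% and 1.85% of all tested genes. The other 5 of the 12 listed were below the filter.

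Several thymus genes were high in a single implant, MWF2. Of the 10 listed, 5, 4, 5 and 0 had 0 reads in MWM1, MWM2, MWF1 and MWF2, and 6 and 5 in the fat. Rag1 (chromosome 2, 101638282 to 101649501, minus strand), the recombinase of developing lymphocytes, was at 0, 0, 0 and 159 CPM in the implants and 0 in the fat, and Rag2, its partner, at 0, 0, 0 and 11 CPM. Dntt, the polymerase that adds bases at receptor joints, was at 0.799, 0.678, 0.637 and 97 CPM, and Foxn1, the master regulator of thymus epithelium, at 0, 0, 0 and 3.71 CPM. MWF2 alone was high in each of these 4. With 1 library above 1 CPM such genes do not pass the filter: 8 of the 10 thymus genes were not tested, and 0 of the other 2 (Ccl25 and Cd1d1) passed. Cd1d1, an antigen-presenting gene that many cell types express, was at 103.5 to 259 CPM in all 6 libraries. Rag1, Rag2, Dntt and Foxn1 were chosen after their values were seen.

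Of 15 tested mammary and glandular epithelium genes, 9 rose and 0 fell, against 8.6% and 1.85% of all tested genes. Krt8 and Krt18, the keratin pair of simple epithelia, were at 90.02, 84.5, 32.4 and 74.4 CPM and 65.7, 58.9, 25.1 and 59.5 CPM in the implants, against 0 and 0.057 CPM and 0.113 and 0.342 CPM in the fat. Krt8 had 1 read in the fat, a ratio of 2490 (exact 95% interval of the counts 446 to 98200), with adjusted p = 0.00632, and Krt18 rose by 6.11 (SE 0.98, adjusted p = 0.007). Krt7, a keratin of ducts and airways, was at 5.97, 4.24, 7.97 and 8.94 CPM against 0.17 and 0.228 CPM (3.33, SE 0.25, adjusted p = 0.000587). The milk genes Csn2, Csn3, Wap and Lalba of the list were below the filter. Without ESM1 2 of the 15 glandular genes rose and with all 8 groups 3. Of 15 tested keratinocyte genes 2 fell, Sbsn and Krtdap, a gene of differentiating skin, at 0.094, 0, 0.744 and 0.0608 CPM against 2.84 and 5.64 CPM (-2.75, SE 0.40, adjusted p = 0.00493). Mesothelial Wt1, a transcription factor of body cavity linings, rose from 0.17 and 0.114 CPM to 1.32, 1.52, 2.07 and 3.34 CPM (1.94, SE 0.32, adjusted p = 0.00749), 1 of 2 rises among 13 mesothelium genes.

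**Figure D2:**
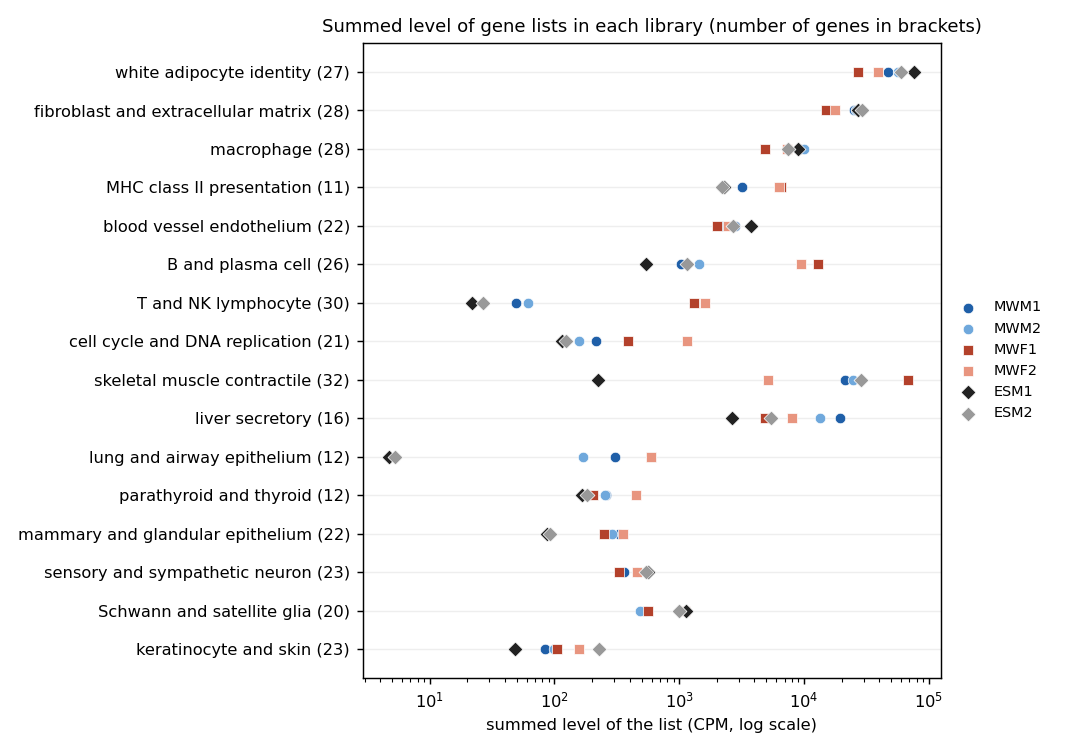
Summed level of 16 gene lists (CPM, log axis) in each of the 6 libraries, with circles for MWM, squares for MWF and diamonds for subcutaneous fat. The lung and the T and NK lymphocyte lists stand above the fat in every implant, the adipocyte list is lower in all 4 implants, and the skeletal muscle list is lowest in ESM1.

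Skeletal muscle genes have to be read library by library. The summed level of 32 contractile genes was 21450, 24690, 68420 and 5152 CPM in the implants, and 224 and 28410 CPM in the fat. As a share of the library these sums were 2.14, 2.47, 6.84 and 0.515% against 0.0223 and 2.84%. ESM2 therefore held more muscle RNA than MWM1, MWM2 or MWF2, ESM1 almost none, and MWF1 the most. In ESM2 31 of the 32 genes were more than 10-fold above ESM1, and in MWM1, MWM2, MWF1 and MWF2 28, 29, 31 and 24 were.

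Single genes show the same order. Myh4 (chromosome 11, 67238029 to 67260446, plus strand), the myosin of fast glycolytic fibres, was at 5083, 6106, 19610 and 1284 CPM in the implants and 16.5 and 6937 CPM in the fat. Acta1, the actin of skeletal muscle, was at 3501, 3655, 9098 and 743 CPM against 72.1 and 4478 CPM, Ckm, muscle creatine kinase, at 974, 938, 2693 and 204 CPM against 1.76 and 1258 CPM, and Ttn, titin, at 1306, 1449, 4273 and 287 CPM against 2.89 and 2051 CPM. Atp2a1, the calcium pump of fast fibres, was at 1494, 2807, 8049 and 529 CPM against 5.05 and 2604 CPM, and Mb, myoglobin, at 177, 72.3, 199 and 19.1 CPM against 0.113 and 103 CPM. ESM1 was the lowest library and MWF1 the highest in each of these 6 genes, and the groups overlap through ESM2.

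Fibre types did not keep 1 proportion across libraries. The sum of 6 genes of fast fibres (Myh1, Myh4, Tnnt3, Tnni2, Tnnc2 and Actn3) was 9027, 9806, 29130 and 2081 CPM in the implants and 25.2 and 11330 CPM in the fat. The sum of 6 genes of slow fibres (Myh7, Myl2, Myl3, Tnnt1, Tnni1 and Tnnc1) was 4.14, 2.94, 136 and 12.4 CPM against 1.36 and 132 CPM. Myh7, the slow myosin, was at 0.094, 0.452, 67 and 4.8 CPM against 0 and 61.6 CPM. Slow fibre genes were thus high in MWF1 and ESM2 and near the level of ESM1 in both MWM libraries, whose fast fibre genes were close to those of ESM2.

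Of 31 tested muscle genes 0 passed in the comparison of the implants with the fat, by limma in every setting or by edgeR, and 0 had an unadjusted p under 0.05 by either tool. The 4 implants and the 2 fat libraries overlapped in all 31. The list median was 3.28 with both fat libraries, 7.10 without ESM2 and -0.54 without ESM1, so the sign itself is set by which fat library is kept. Rescaling the libraries without these genes gave 2019 changed genes in the whole comparison, against 1852.

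**Figure D3:**
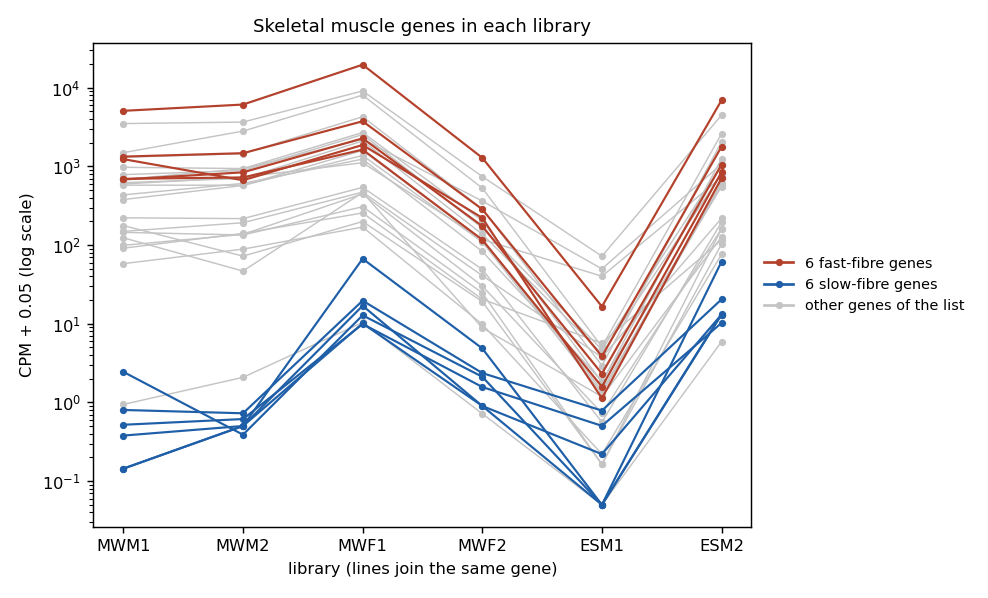
Level of each tested skeletal muscle gene (CPM + 0.05, log axis) in the 6 libraries, with lines joining the same gene; fast fibre genes are red, slow fibre genes blue and the rest grey. ESM1 is the low point of nearly all lines, ESM2 lies beside MWM1 and MWM2 for the fast genes, and the slow genes peak in MWF1 and ESM2.

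Lymphocyte genes were higher in the implants, above all in MWF. Of 29 tested T and NK lymphocyte genes of 30 listed 24 rose and 0 fell (against 8.6% and 1.85% of all tested genes), with a median of 2.94 beside 0.14 for all genes. Their sum was 49, 61.9, 1309 and 1603 CPM in the implants and 21.9 and 26.9 CPM in the fat. Cd4 (chromosome 6, 124864692 to 124888221, minus strand), the coreceptor of helper T cells, was at 2.87, 4.29, 80.4 and 98.2 CPM against 0.794 and 1.42 CPM, and Trac, the constant region of the T cell receptor alpha chain, at 2.35, 4.69, 88.7 and 64.8 CPM against 0.737 and 0.513 CPM. Cd4 rose by 3.59 (SE 0.45, adjusted p = 0.00313) and Trac by 3.94 (SE 0.48, adjusted p = 0.00313). Foxp3, which defines regulatory T cells, was at 0.517, 0.565, 14.1 and 12.3 CPM against 0.681 and 0.57 CPM: MWF1 and MWF2 were high, and MWM1 and MWM2 lay just below both fat libraries. Il7r, the receptor for interleukin 7, rose by 3.21 (SE 0.41, adjusted p = 0.00317).

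MWM and MWF differed in these genes. Against the fat, 1 of 29 T and NK genes rose in MWM and 26 in MWF, beside 3.02% and 16.2% of all tested genes. In the direct test 26 were lower in MWM than in MWF and 0 higher, against 12.4% and 1.47% of all tested genes. Cd4 differed by -4.48 (SE 0.52, adjusted p = 0.00197), Foxp3 by -3.72 (SE 0.26, adjusted p = 0.000919) and Tcf7, a transcription factor of naive and developing T cells, by -6.23 (SE 1.02, adjusted p = 0.00638). Tcf7 was at 2.96, 4.69, 242 and 417 CPM in the implants. The count of 26 was 22 to 26 without any 1 of the 4 implants and 26 with TMM scaling. In the comparison with the fat, 4 of 29 rose without ESM1, 10 without ESM2, 20 to 22 without an implant library, 20 with all 8 groups and 15 with edgeR.

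B and plasma cell genes were also higher, again above all in MWF. Of 25 tested of 26 listed, 19 rose and 0 fell (against 8.6% and 1.85% of all tested genes), with a median of 3.31, and edgeR on the recovered reads gave 5 rises. In MWM 1 of the 25 rose over the fat, and in MWF 23 did, beside 3.02% and 16.2% of all tested genes. The sum of the list was 1038, 1431, 13010 and 9445 CPM against 539 and 1159 CPM. Cd22, an inhibitory receptor of B cells, was at 4.89, 4.97, 135 and 90.3 CPM against 0.567 and 0.626 CPM and rose by 4.48 (SE 0.40, adjusted p = 0.00115). Cd37, a tetraspanin of leukocytes, was at 24.1, 27.2, 205 and 140.1 CPM against 21.6 and 22.8 CPM (1.55, SE 0.17, adjusted p = 0.00262). Ighg2c, the constant region of an IgG subclass, was at 12.4, 14.3, 317 and 1796 CPM against 0.34 and 2.96 CPM, and Igha, that of IgA, at 24.8, 28.7, 433 and 724 CPM against 5.96 and 23.4 CPM. Ighg2c rose by 5.91 (SE 0.86, adjusted p = 0.00496) and Igha by 3.31 (SE 0.64, adjusted p = 0.0147). Immunoglobulin genes took 0.0762, 0.11, 1.35 and 1.02% of the reads in the implants and 0.034 and 0.0955% in the fat.

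In the direct test 23 of 25 B and plasma cell genes were lower in MWM than in MWF and 0 higher (7 to 12 without any 1 implant library, 20 with TMM scaling). Of all tested genes 12.4% were lower and 1.47% higher in MWM. The genes with the largest falls were immunoglobulin segments, whose reads may be shared among near-identical copies. Igkv3-2, a kappa variable segment, was at 0.376, 0.169, 873 and 118 CPM in the implants, and Ighv1-18, a heavy chain variable segment, at 0, 0.169, 25.2 and 97.7 CPM. The first was highest in MWF1 and the second in MWF2, so the 2 MWF libraries differed in their abundant segments. Ighg1 was at 0.517, 0.0565, 19.1 and 196 CPM. Without ESM1 2 of the 25 rose against the fat, without MWM1 or MWM2 8, without ESM2 9, without MWF2 10, without MWF1 11 and with all 8 groups 8.

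Chemokine receptors of lymphocytes were higher in the implants as well. Cxcr5, the receptor of B cell follicles, was at 0.893, 2.2, 62.7 and 36.8 CPM against 0.284 and 0 CPM (3.95, SE 0.78, adjusted p = 0.0158) and Ccr7, the receptor of the T cell zone, at 1.83, 2.88, 61.8 and 30.1 CPM against 0.284 and 0.968 CPM (3.37, SE 0.52, adjusted p = 0.00599). Cxcr4, a receptor of leukocytes and progenitors, was at 13.2, 11.2, 61 and 52.4 CPM against 3.06 and 4.56 CPM (2.66, SE 0.23, adjusted p = 0.000989), and Ccl5, a chemokine of T cells, at 4.65, 3.84, 30.3 and 37.5 CPM against 1.48 and 3.25 CPM (2.22, SE 0.46, adjusted p = 0.0189). All 4 were above the fat in every implant and higher in both MWF libraries than in both MWM libraries. Among all tested genes 8.6% rose and 1.85% fell. Of 28 tested interleukin, TNF and chemokine genes 7 rose and 0 fell (1 without ESM1, 3 without MWM1 or MWF2, 4 without MWM2 or ESM2, 5 without MWF1, 4 with all 8 groups and 3 with edgeR), and Il1a, Il1b and Il6 were below the filter.

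MHC class II genes, which present antigen to helper T cells, rose in 8 of 11 cases with a median of 1.22, and 0 fell. The shares of all tested genes were 8.6% and 1.85%. Taken apart, 0 of the 11 rose over the fat in MWM (median 0.51) and 11 in MWF (median 1.56), beside 3.02% and 16.2% of all tested genes. Cd74, the invariant chain, was at 1290, 980.4, 3124 and 2817 CPM against 1022 and 996 CPM: MWF1 and MWF2 were high, and MWM2 lay just below both fat libraries (0.86, SE 0.19, adjusted p = 0.0256). H2-DMa, which loads peptides, was at 42.2, 33, 91.3 and 84.4 CPM against 25.8 and 26.5 CPM and rose by 1.12 (SE 0.20, adjusted p = 0.0103). Ctss, the protease that trims the invariant chain, was at 293, 164, 206 and 238 CPM against 68.5 and 104 CPM and overlapped between MWM and MWF (adjusted p = 0.98 for that difference). In the direct test 9 of 11 were lower in MWM, against 12.4% of all tested genes (5 without MWM1, 4 without MWF2, 1 without MWF1, 0 without MWM2 and 9 with TMM scaling). The rises over the fat were 0 without ESM1, 1 without MWM1, MWF2 or ESM2, 2 without MWF1, 5 without MWM2, 2 with all 8 groups and 4 with edgeR.

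Cell cycle genes rose in 10 of 21 cases and 0 fell, against 8.6% and 1.85% of all tested genes, with a median of 1.67. Mki67, the proliferation antigen, was at 24.2, 15.8, 69.3 and 234 CPM against 9.7 and 8.54 CPM, and Mcm5, a subunit of the replicative helicase, at 12.4, 7.68, 27.3 and 56.5 CPM against 4.48 and 7.63 CPM. MWF2 was the highest library in both, and Mki67 differed several fold between MWF1 and MWF2. Mcm5 rose by 1.67 (SE 0.32, adjusted p = 0.0151) and Rrm2, of the ribonucleotide reductase that makes DNA precursors, by 2.41 (SE 0.50, adjusted p = 0.0195). Against the fat 20 of 21 rose in MWF and 0 in MWM, and 13 were lower in MWM than in MWF (19 without MWF1, 1 without MWM1, 0 without MWM2 or MWF2). The count of rises was 20 without MWF1, 8 without MWF2, 6 without MWM2, 1 without MWM1, 2 without ESM2, 0 without ESM1 and 0 with all 8 groups. Among all tested genes 16.2% rose over the fat in MWF, 3.02% rose over it in MWM and 12.4% were lower in MWM than in MWF. MWF2 also held the thymus genes above, and their part in the cell cycle result was not tested. Mki67 was chosen after its values were seen.

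**Figure D4:**
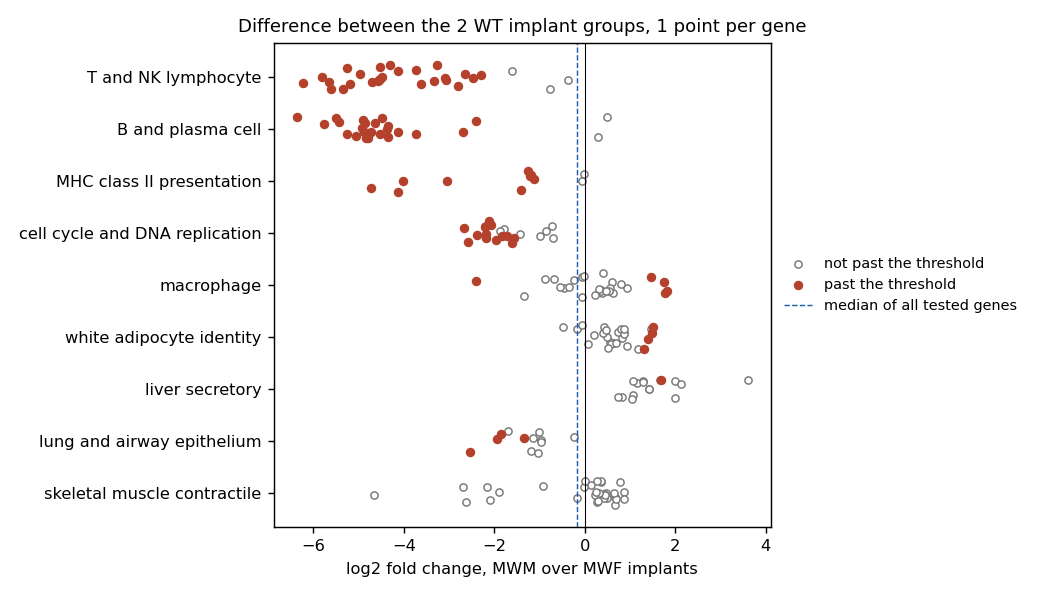
Log2 fold change of MWM over MWF implants (horizontal axis), 1 point per tested gene of 9 lists (vertical axis), with filled points past the threshold and the dashed line at the median of all tested genes (-0.18). All filled points of both lymphocyte lists lie left of the median of all genes, as do those of the cell cycle and lung lists, while the filled points of the adipocyte and liver lists lie right of 0.

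The genes highest in MWM over MWF included Itgad (chromosome 7, 128154376 to 128223816, plus strand), an integrin of macrophages, at 152, 278, 4.46 and 3.95 CPM in the implants and 3.18 and 0.342 CPM in the fat (difference 5.46, SE 0.60, adjusted p = 0.00161). Apoa4, an apolipoprotein of gut and liver, was at 287, 114, 3.67 and 6.26 CPM (5.10, SE 0.92, adjusted p = 0.00952), and Serpina3k, a protease inhibitor of liver whose paralogs are nearly identical, at 190.5, 316, 13.1 and 15.8 CPM (4.05, SE 0.90, adjusted p = 0.0209). Gpr50, a receptor related to those of melatonin, was at 25.4, 27.9, 0.478 and 0.608 CPM against 1.36 and 0.114 CPM. Lep was higher in MWM by 1.31 (SE 0.35, adjusted p = 0.0404), and 4 of 27 white adipocyte genes were (Lep, Gpd1, Agpat2 and Dgat2; 8 with TMM scaling, 3 without MWF2 and 0 without any 1 of the other implants). Of all tested genes 1.47% were higher in MWM, and 5.55% with TMM scaling. Both MWF libraries differed from both MWM libraries in lymphocyte content and in Y chromosome genes, and the part of these in the difference was not tested.

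Macrophage genes moved in both directions. Of 28, 2 rose and 4 fell, against 8.6% and 1.85% of all tested genes, and the list median was -0.15. Spp1, osteopontin, was at 198, 231, 44.8 and 85.6 CPM against 7.37 and 9.8 CPM and rose by 3.68 (SE 0.41, adjusted p = 0.00262), and Itgax, the integrin CD11c, at 68.1, 35.9, 30.02 and 46.8 CPM against 6.86 and 5.18 CPM (2.75, SE 0.32, adjusted p = 0.00284). The falls were receptors of resident macrophages. Cd163, the scavenger receptor for haptoglobin-bound hemoglobin, was at 21.9, 48.9, 51.7 and 28.9 CPM against 147 and 150.2 CPM and fell by 2.04 (SE 0.40, adjusted p = 0.016). Siglec1, a sialic acid receptor, was at 34.7, 28.7, 48.7 and 38.7 CPM against 97.6 and 108 CPM and fell by 1.46 (SE 0.22, adjusted p = 0.00587), and Clec10a and Timd4 also fell. Csf1r, the receptor for the macrophage growth factor, was at 194, 196, 212 and 192 CPM against 252 and 277 CPM and did not pass (adjusted p = 0.124; chosen after its values were seen). Without ESM1 2 rose and 0 fell, without ESM2 2 and 1, without MWM1 or MWF2 2 and 2, and with all 8 groups 0 and 0.

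Neutrophil genes were low in both tissues and moved both ways. Ngp was at 0.376, 0.339, 5.21 and 3.04 CPM with 0 reads in the fat, at least 25.6-fold higher (adjusted p = 0.00362), and Ltf, lactoferrin, which glandular epithelium also secretes, was at 30.3, 7.17, 31.5 and 1.89 CPM, high in MWM1 and MWF1. Mmp9, a gelatinase, was at 10.3, 17.8, 35 and 24.4 CPM against 55.9 and 66.8 CPM and fell by 1.59 (SE 0.25, adjusted p = 0.00692). In all, 4 of 11 tested neutrophil genes rose (Ngp, Ltf, Camp and Mpo) and 1 fell, against 8.6% and 1.85% of all tested genes. Without ESM1 or ESM2 1 rose and 0 fell, and without MWM1, MWF1 or MWF2 2 rose. Of 14 tested mast cell and eosinophil genes 0 rose and 2 fell (Tpsb2 and Mrgprb1), against 8.6% and 1.85% of all tested genes. The falls were 2 without ESM1, 3 with TMM scaling or edgeR, and 0 without any 1 of the other 5 libraries or with all 8 groups. Of 24 interferon response genes 0 rose and 2 fell (Oas2 and Oasl2; 5 with TMM scaling, 0 without any 1 of MWM1, MWM2, ESM1 and ESM2 or with all 8 groups). Prtn3, a protease of neutrophil granules, was among the largest falls of all genes, at 4.51, 4.8, 5.05 and 4.44 CPM against 29.2 and 47.5 CPM (-2.86, SE 0.32, adjusted p = 0.00262). It is no member of the neutrophil list.

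Stroma and vessel genes were lower where they passed: 3 of 28 fibroblast and matrix genes, 3 of 23 progenitor and mural genes and 3 of 22 endothelial genes fell and 0 rose, against 1.85% and 8.6% of all tested genes. All 4 implants lay below both fat libraries in 10, 10 and 7 of them, against 8.0% of all tested genes. Timp2, an inhibitor of matrix proteases, was at 516, 664, 454 and 463 CPM against 1003 and 1339 CPM and fell by 1.16 (SE 0.22, adjusted p = 0.0138), and Mmp2, the gelatinase it binds, at 282, 372, 168 and 189.6 CPM against 469.6 and 571 CPM (-1.11, SE 0.26, adjusted p = 0.0306). With Loxl2, a collagen crosslinking oxidase, these were the falls of the matrix list. Pdgfrb, the receptor of mural cells, Fmo2 and Pi16, a marker of fibroblast progenitors, fell in the progenitor and mural list (7 falls with TMM scaling), Pi16 from 438 and 364 CPM to 92.1, 74.5, 161 and 92.9 CPM. In endothelium Tek, the angiopoietin receptor, was at 58.6, 51.3, 45.7 and 40.2 CPM against 116 and 98 CPM and fell by 1.13 (SE 0.16, adjusted p = 0.00475), and Flt1, a VEGF receptor, by 0.78 (SE 0.12, adjusted p = 0.00622). Nos3, endothelial nitric oxide synthase, also fell. Without ESM1 0 genes of these 3 lists fell, and with all 8 groups 2, both of the matrix list. Without any 1 of the other libraries 0 to 3 matrix genes, 0 to 2 progenitor and mural genes and 2 to 3 endothelial genes fell. Of 9 lymphatic genes 0 passed by limma or edgeR, with 2 and 1 at an unadjusted p under 0.05. Lyve1, the hyaluronan receptor of lymphatic vessels, was at 8.41, 13.1, 33.1 and 8.76 CPM against 51.3 and 96 CPM, with no overlap and adjusted p = 0.111. Lyve1 is also a member of the macrophage list. Prox1, of the same lymphatic list, went the other way, at 15.9, 9.66, 5.26 and 8.33 CPM against 1.36 and 1.82 CPM. It did not overlap either and did not pass (2.21, SE 0.92, adjusted p = 0.173).

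Glial genes moved both ways. Of 19 tested genes of Schwann cells and satellite glia 5 fell and 2 rose, against 1.85% and 8.6% of all tested genes. Mbp, myelin basic protein, was at 81.7, 95.9, 110.4 and 119.9 CPM against 304 and 237 CPM and fell by 1.40 (SE 0.14, adjusted p = 0.00213). Prx, periaxin of Schwann cells, was at 15.8, 15.7, 21.7 and 21.3 CPM against 84 and 57.3 CPM (-1.89, SE 0.26, adjusted p = 0.00433). Pmp22 and Mag, also myelin proteins, fell by 1.00 (SE 0.18, adjusted p = 0.00965) and 0.93 (SE 0.21, adjusted p = 0.0279). Cnp, an enzyme of myelin, was at 32.2, 32, 102 and 86.5 CPM against 51.4 and 52.2 CPM, overlapped and did not pass (adjusted p = 0.77). Gfap (chromosome 11, 102887336 to 102900912, minus strand), the intermediate filament of astrocytes and of Schwann cells without myelin, was at 97.3, 33.5, 70.7 and 484 CPM against 0.227 and 0.114 CPM and rose by 7.28 (SE 0.82, adjusted p = 0.00267), highest in MWF2. Ngfr, the low-affinity neurotrophin receptor of such cells, was at 10.2, 9.49, 18.5 and 39 CPM against 3.63 and 4.78 CPM. The falls were 1 without ESM1, 2 without ESM2 and 3 with all 8 groups, and the rises 3 without MWF1 and 1 without any 1 of the other libraries, with all 8 groups or with edgeR. Sox10, the transcription factor of the glial lineage, overlapped, at 10.3, 7.85, 8.77 and 19.4 CPM against 20.02 and 13.2 CPM (adjusted p = 0.36; chosen, as Ngfr and Cnp were, after its values were seen).

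Neuron genes rose in 13 of 19 tested cases and fell in 1, against 8.6% and 1.85% of all tested genes, the fall being Ntrk2, a neurotrophin receptor that other cells express too. Ntrk2 alone was at 271, 373, 233 and 329.6 CPM in the implants and 524 and 509.9 CPM in the fat, and the others were low. Nefl and Nefh, the light and heavy neurofilament chains, were at 3.95, 3.5, 4.62 and 4.68 CPM and 6.62, 6.72, 13.4 and 10.2 CPM in the implants against 0.227 and 0.342 CPM and 0.227 and 0.285 CPM in the fat, and rose by 2.58 (SE 0.21, adjusted p = 0.000766) and 3.63 (SE 0.32, adjusted p = 0.00106). Scn10a, the sodium channel of pain-sensing neurons, was at 3.1, 3.44, 4.41 and 4.32 CPM with 0 reads in the fat, at least 44.4-fold higher (adjusted p = 0.000983). Dbh, which makes noradrenaline, was at 1.83, 2.99, 2.66 and 2.55 CPM with 0 reads in the fat, at least 29.1-fold higher (adjusted p = 0.00115), and Th, the first enzyme of that pathway, at 1.08, 2.88, 1.27 and 1.16 CPM against 0 and 0.228 CPM. Calca, encoding CGRP, a peptide of sensory nerves, was at 7.28, 6.21, 4.78 and 7.78 CPM against 1.42 and 0.854 CPM (Th and Calca were chosen after their values were seen). All 4 implants lay above both fat libraries in 15 of the 19, against 19.1% of all tested genes, and 0 of them passed the test of MWM against MWF. Leaving out each library gave 9 to 13 rises and the fit with all 8 groups 9.

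Hox genes of the trunk fell where they passed, and 2 of the most posterior genes rose. Of 24 tested genes of paralog groups 1 to 9, 0 rose and 7 fell, and of 9 tested genes of groups 10 to 13, 2 rose and 1 fell. Of all tested genes 8.6% rose and 1.85% fell. Hoxc9 (chromosome 15, 102976439 to 102985099, plus strand) was at 7.28, 8.75, 7.01 and 7.3 CPM in the implants and 25.7 and 26.1 CPM in the fat and fell by 1.71 (SE 0.19, adjusted p = 0.00253). Hoxc6 was at 20.2, 21.6, 14.9 and 17.2 CPM against 47.2 and 38.9 CPM and fell by 1.21 (SE 0.15, adjusted p = 0.00309). Hoxc10 was at 7.94, 9.21, 3.77 and 5.53 CPM against 20.9 and 21.2 CPM and fell by 1.67 (SE 0.39, adjusted p = 0.0292). The implants were lower in every library in these 3 genes. Hoxc8 and Hoxc5 of the same cluster and Hoxa7, Hoxa6 and Hoxa3 also fell, by 1.22, 1.10, 1.10, 1.00 and 1.00 with adjusted p from 0.0126 to 0.0317.

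Several posterior genes had reads in the implants alone. Hoxa13 (chromosome 6, 52257694 to 52260880, minus strand), a gene of limb ends and the genital region, was at 1.46, 1.02, 1.38 and 3.28 CPM and Hoxd13 at 3.24, 1.41, 1.86 and 4.38 CPM, both with 0 reads in the fat. They were at least 20.4-fold and 31.7-fold higher (adjusted p = 0.00493 and 0.0045). Hoxa11, Hoxd11 and Hoxb13 also had 0 reads in both fat libraries and reads in each implant, between 0.056 and 1.89 CPM, and did not pass. Hoxa5, which marks anterior and trunk positions, was at 7.47, 4.63, 11.7 and 9.43 CPM against 9.02 and 7.69 CPM, Hoxa10 at 9.87, 11.2, 10.3 and 12 CPM against 12.8 and 11.9 CPM, and Hoxd8 at 20.2, 26.6, 30.6 and 16.9 CPM against 21.7 and 25.2 CPM, each overlapping. Of all Hox genes, MWM and MWF differed in Hoxc8 alone, by 1.16 (SE 0.32, adjusted p = 0.0457), at 48.2, 52.5, 16.9 and 28.9 CPM in the implants. With all 8 groups 0 Hox genes passed. The falls in groups 6 to 9 were 2 without ESM1 or MWM2, 3 without MWM1, MWF1 or ESM2 and 5 without MWF2. In groups 10 to 13 Hoxc10 passed in none of these, and 1 gene rose without ESM1.

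**Figure D5:**
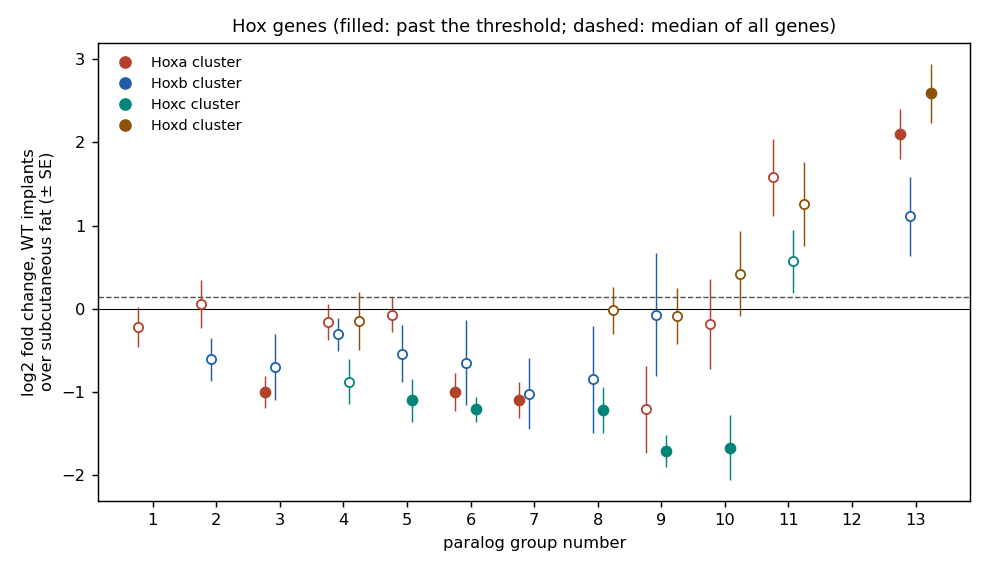
Log2 fold change of WT implants over subcutaneous fat with its SE (vertical axis) for each tested Hox gene by paralog group (horizontal axis), coloured by cluster, filled where past the threshold, with the median of all genes (0.14) dashed. Hoxc9 at -1.71 and Hoxc10 at -1.67 lie lowest, and Hoxa13 and Hoxd13 lie highest.

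Other patterning factors moved both ways, with 5 of 32 higher and 3 lower, against 8.6% and 1.85% of all tested genes. Tbx4, a factor of hindlimb and lung, was at 1.03, 1.69, 3.61 and 2.8 CPM against 0 and 0.342 CPM (2.00, SE 0.31, adjusted p = 0.00615), and Barx1, a factor of stomach and jaw mesenchyme, at 1.22, 0.678, 1.54 and 1.76 CPM against 0 and 0.057 CPM, 45.5 times the fat (exact 95% interval of the counts 7.97 to 1820), with adjusted p = 0.00447. Gata6, a factor of endoderm and heart, fell by 0.73 (SE 0.12, adjusted p = 0.00739), at 11, 11.9, 12.1 and 11.9 CPM against 18.7 and 20.8 CPM. En1, which marks ventral skin and limb, and Shox2, a limb factor, were the other 2 falls, and Tcf21, Hand2 and Wt1 the other rises. Tcf21 had 0 reads in the fat and 1.6, 0.508, 1.81 and 2.74 CPM in the implants. These 4 genes, En1, Shox2, Tcf21 and Hand2, were chosen with their values known. Without ESM1 0 of the 32 passed, without ESM2 3 rose and 0 fell, without MWM1 3 rose and 1 fell, and with all 8 groups 2 rose.

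Among growth factors, Bmp6, a BMP ligand of endothelium, was at 25.5, 22.2, 25.8 and 23.1 CPM against 53.1 and 46.5 CPM and fell by 1.03 (SE 0.19, adjusted p = 0.0126), as did Bmp2, and Gdf15, a stress hormone, rose from 2.78 and 2.45 CPM to 14.9, 7.57, 5.74 and 4.68 CPM (1.36, SE 0.31, adjusted p = 0.0265). They were the 3 calls among 21 genes of TGF-beta ligands and latency proteins, 1 rise and 2 falls against 8.6% and 1.85% of all tested genes. Without MWM2 1 rose and 1 fell, without any 1 of the other libraries 0 rose and 1 fell, edgeR gave 0 rises and 4 falls, and with all 8 groups 0 passed. Wnt10b, a WNT ligand that holds back adipocyte formation, was at 1.32, 2.15, 2.87 and 0.669 CPM against 16.1 and 14.1 CPM and fell by 2.90 (SE 0.62, adjusted p = 0.0216). Rasd1, a small GTPase gene induced by glucocorticoids, was at 18.3, 23.3, 11.6 and 25.1 CPM against 238 and 72.8 CPM and fell by 2.78 (SE 0.50, adjusted p = 0.0114), while 0 of 15 genes of the glucocorticoid list passed. Pcdh20, a protocadherin, was at 1.32, 1.19, 0.956 and 0.669 CPM against 10.3 and 9.62 CPM, and Mrgprg, a receptor related to those of sensory neurons and mast cells, at 1.36, 0.113, 5.79 and 1.34 CPM against 11.4 and 21.5 CPM. Both Wnt10b and Mrgprg missed the threshold with edgeR, with array quality weights, with a pseudocount of 0.1 and with all 8 groups. Of 15 tested genes of an imprinted fetal growth list 0 rose and 1 fell, against 8.6% and 1.85% of all tested genes. The fall was Cdkn1c, a brake on the cell cycle, at 15.7, 12.9, 22.6 and 19.6 CPM against 39 and 24.6 CPM (-0.82, SE 0.19, adjusted p = 0.0266). Cdkn1c missed the threshold with all 8 groups and with only MWM, MWF and ESM in the fit. In cartilage and bone lineage 2 of 8 tested genes rose, Comp, a matrix protein of cartilage and tendon, at 56, 24.7, 27.7 and 49.98 CPM against 6.69 and 11.4 CPM, and Phex, a peptidase of bone cells, beside 8.6% of all tested genes, and 12 of the 20 listed were below the filter. The count was 1 without MWM1 or ESM2 or with edgeR, and 0 without MWF1, MWF2 or ESM1 or with all 8 groups, and Comp passed in 8 of 19 alternatives.

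Mitochondrial respiration, the glucocorticoid response and the circadian clock gave 0 calls in 29, 15 and 17 genes, by limma and by edgeR. At an unadjusted p under 0.05 there were 1, 1 and 3 by limma and 0, 1 and 7 by edgeR, and without ESM2 the respiration and clock lists gave 2 and 6 calls. Their medians were 0.11, -0.14 and -0.32, beside 0.14 for all genes. Cox7b, a subunit of cytochrome oxidase, was at 70.5, 63.9, 71.8 and 64.1 CPM against 50.03 and 65.3 CPM, and Hsd11b1, which activates glucocorticoid inside the cell, at 105, 90.1, 27.2 and 45 CPM against 83.6 and 130.1 CPM. Hsd11b1 overlapped with the fat and was higher in MWM than in MWF by 1.46 (SE 0.36, adjusted p = 0.0297). Nr1d1, a clock repressor, was at 157, 123, 174 and 171 CPM against 307 and 184 CPM, below the fat in all implants and not past the threshold (adjusted p = 0.0995).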

How the data were processed

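The authors deposited 1 table of CPM, counts scaled to library size, for 54658 genes in 16 libraries. Named in the submitters' processing notes are the mm10 build, STAR 2.5.4, Subread 1.6.3 with featureCounts, cutadapt 2.7 and FastQC 0.11.4. For strand setting, gene annotation and filters, nothing is given in the sources used here. Per the labels' protocols, ribosomal RNA was removed with RNase H and cDNA primed with random hexamers, while the labels name the molecule polyA RNA. All values (100%) were whole multiples of the worth of 1 read within 0.001 reads, so read counts were recovered for totals, floors, intervals and an edgeR alternative. Totals were 16444965 to 25805502 reads over 16 libraries. Intervals and floors cover counting error only.

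Tests used limma 3.58.1 (R 4.3.3), with trended and robust moderation on log2(CPM + 0.5), over genes reaching 1 CPM in 2 or more of 12 libraries of 6 groups (6 residual degrees of freedom, 17723 genes), with Benjamini-Hochberg adjustment. EVFN and MKM were left out of this fit because a library of each went against its label: Cfd was at 81.8 CPM in EVFN1 and 12310 in EVFN2, and at 14070 in MKM1 and 102 in MKM2. Alternatives were other scalings, filters, pseudocounts, sets of groups, quality weights, a replicate block, edgeR 4.0.16 and leaving out each library. The script was tested on simulated data.

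Named genes were Lep, Lepr, Cfd and the tested Hox genes, up to 4 called members of each list by adjusted p (2 where none passed), the muscle genes, and the 12 largest rises and falls (6 for MWM against MWF) that did not overlap, averaged 5 CPM or more in the higher group and carry no predicted gene symbol. Genes outside this rule, such as those that complete a count or are usual markers of a cell type, were chosen after their values were seen. A few genes that met the rule are not reported here. The comparison, the lists and the tests were chosen with earlier results of these data known. Gene positions are from GENCODE M21 (mm10) and promoter sequences from RefSeq (GRCm38.p6). Tables and figures were made with Python 3.11.15, pandas 2.3.3, scipy 1.17.1 and matplotlib 3.10.9.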

Additional observations from a re-analysis of the deposited data

Results flagged for a closer look

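The test of MWM against MWF passed for 44 of 205 named genes (21.5%, against 13.9% of all tested genes), of which 12 had been chosen for that difference and pass by selection. Of the 193 chosen otherwise 32 passed (16.6%). The fold of the 44 over the 2 subcutaneous fat libraries thus differed between the implant groups, which share those libraries. Values are log2 differences of MWM minus MWF, by limma with adjusted p under 0.05. The cause was not tested.

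T cell genes were lower in MWM, with differences of -6.23 for Tcf7, -4.48 for Cd4, -4.31 for Trac, -3.72 for Foxp3 and -2.29 for Il7r. B and plasma cell genes followed, with -4.35 for Cd22, -2.70 for Cd37, -5.77 for Ighg2c, -4.37 for Igha, -8.72 for Igkv3-2, -6.44 for Ighv1-18, -6.37 for Ighg1, -6.24 for Ighv1-26 and -5.91 for Igkv5-39. Chemokines and their receptors differed by -4.65 for Cxcr5, -3.96 for Ccr7, -2.85 for Ccl5 and -2.17 for Cxcr4. Antigen presentation differed by -1.40 for Cd74 and -1.22 for H2-DMa. The cell cycle genes differed by -2.18 for Rrm2, -1.96 for Mcm5 and -1.72 for Mcm2, and granule genes of neutrophils by -2.39 for Ngp, -1.12 for Camp and -1.08 for Mmp9. Lung surfactant differed by -1.86 for Sftpa1 and -1.35 for Sftpd, and the iodide carrier of the thyroid by -1.53 for Slc5a5.

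Higher in MWM were the Y chromosome genes, with 4.43 for Ddx3y, 4.03 for Eif2s3y, 3.15 for Kdm5d and 2.83 for Uty. Macrophage genes included 5.46 for Itgad and 1.78 for Spp1. Liver and gut genes differed by 5.10 for Apoa4 and 4.05 for Serpina3k, and the complement component C7 by 4.42. Adipokine genes differed by 1.31 for Lep and 2.48 for Serpina12. Elovl3 of the thermogenesis list differed by 1.73 and Hsd11b1 of the glucocorticoid list by 1.46. The remaining differences were 4.71 for Gpr50 and 1.16 for Hoxc8.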

How the results depend on the processing

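The counts of genes past the threshold depended on the fit. With all 8 groups the gap within EVFN and within MKM, which lies along fat against implant, enters as spread and lowers the counts. For the 4 implants against the fat the main count of 1852 became 444 with all 8 groups, 1231 with a filter of 5 CPM, 1045 with array quality weights and 1215 with edgeR, and ranged from 290 (without ESM1) to 1528 (without MWF1) when 1 library was left out. For MWM against ESM, 663 became 15 with all 8 groups and 320 with edgeR, with a range of 16 (without MWM1) to 613. For MWF against ESM, 3357 became 1799 with all 8 groups and 2008 with array quality weights, with a range of 1443 (without MWF2) to 2599. For MWM against MWF, 2457 ranged from 525 (without MWM2) to 2387. Fits with 1 library of a group assume that it varies like the others. Leaving out only the libraries labelled EVFN1 and MKM1 from the 8 groups gave 1858, 668, 3375 and 2460 for the 4 comparisons, and fitting only MWM, MWF and ESM gave 1836, 709, 2957 and 1639. Median-of-ratios scaling gave 1384 rises and 586 falls for the implants against the fat, 2028 and 1277 for MWF against ESM, and 854 and 1291 for MWM against MWF, and edgeR 739 and 476, 1727 and 1158, and 642 and 1043. The correlation of the difference between replicates 2 and 1 was -0.26 for MWM with MWF, 0.13 for MWM with ESM and -0.45 for MWF with ESM. These values do not decide whether the replicate numbers pair the samples. With the replicate block the counts were 1692, 613, 3080 and 2080. Of 128 named genes past the threshold, 33 stayed past it in every setting that kept both fat libraries and in which they were tested, 40 with all 8 groups, 126 with TMM scaling, 111 with edgeR and 110 of the 113 tested with a filter of 5 CPM. Some medians turned sign. That of the skeletal muscle list was 3.28 with all libraries and -0.54 without ESM1 (7.1 without ESM2), and edgeR gave 0.76. That of all genes for MWM against MWF went from -0.18 to 0.07 with TMM scaling, 0.04 with median-of-ratios scaling and 0.02 with edgeR. With TMM scaling the medians of leptin signalling, TGF-beta ligands and mitochondrial respiration against the fat went from 0.04, 0.12 and 0.11 to -0.08, -0.01 and -0.01. Depth limits genes near 1 CPM, which had about 16 to 21 reads, and 333 tested genes had 0 reads in both fat libraries.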
